A study of Drosophila melanogaster with 46 samples.

Results

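Adult tudor males, which lack a germline, were set against adult yellow white males on 2 of the 46 2-colour arrays of a series on sex-biased expression in Drosophila melanogaster. The arrays were chosen by their titles. They compared the same 2 groups of males with the dyes exchanged. The tudor RNA was in the Cy3 channel of array 22 and in the Cy5 channel of array 23. The tudor males had the genotype tud[1] bw[1] sp[1] and came from mothers of that genotype. The other males are described as y[1] w[67c], and the source name of array 23 gives y[1] w[1] for them. All flies were kept at 25 C until 3 to 5 days after eclosion and frozen whole, and 200 ng of poly(A) mRNA went into each probe. Loss of the germline therefore comes together with the eye and wing-base markers and the other background of the tudor stock, and these cannot be told apart. The labels give neither the number of flies nor whether the arrays used separate extracts, so the p-values measure the spread between arrays, which may be technical.

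The tudor protein is needed in the mother to assemble the germ plasm of the egg. Embryos from tudor mothers form no pole cells, the precursors of the germline, and grow into adults whose gonads hold somatic cells only. In a normal testis the germline stem cells lie against a somatic hub, their descendants divide and become spermatocytes, and after meiosis the spermatids build a long tail, pack their DNA with protamine-like proteins and are separated into single sperm. Many of the genes used in these steps are little expressed elsewhere. Sperm leave the fly with products of the accessory glands, ejaculatory duct and ejaculatory bulb, which are somatic.

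Each value is a log2 ratio of males over tudor males, so a positive value means lower in tudor males and a negative value higher in tudor males. The files hold ratios only, so no level of either RNA on its own is given. Values ± SE come from the fit over all comparisons, with n = 2 arrays, and all adjusted p are limma's with Benjamini-Hochberg adjustment over the elements tested. An element is a probe spotted in duplicate, and it is called at an adjusted p below 0.05. In whole flies, fewer cells of a type and less RNA per cell cannot be told apart. Array 22 measured 14763 elements and array 23 13508, with 13406 on both. Duplicate spots correlated at 0.964 and 0.94 across elements, and the turned values of the 2 arrays at 0.591. This was below the median of 0.715 over 27 pairs of dye-swapped arrays in the series, with ovary against female carcass left out.

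The genotype markers gave little check of the labels. For tud itself the ratio was -0.06 on array 22 and 0.15 on array 23, and the files do not say whether the tud[1] allele lowers its own transcript. The gene of the sp marker, speck, had -0.20 on array 22 and -0.14 on array 23, and neither gene was called. The gene y was measured on array 22 alone, at -0.02, while w and bw were not analysed here. The germline markers of the male did separate the flies. Of the 10 listed, 6 were tested and 5 were lower in tudor males, namely betaTub85D, Mst87F, dj, Mst77F and nanos, while bam, a differentiation factor of early germ cells, stood at -0.15 ± 0.18. Of the 7 markers of hub and cyst cells, the somatic cells of the testis, 6 were tested and none was called, with values between -0.07 and 0.08 and no unadjusted p below 0.05 in limma's test. These markers were little enriched in testis, with tj, zfh1, eya, so and hh between -0.21 and 0.34 in dissected testis over male carcass. Their values near 0 therefore cannot show whether these cells were kept or lost.

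Loss of transcripts outnumbered gain. Of 13406 elements tested, 747 were called lower in tudor males (5.57%) and 148 higher (1.1%). With a change of at least 2-fold added, 406 were lower (3.03%) and 30 higher (0.224%). Every called element had the same sign on both arrays. Counted as genes, 1 element each, 624 of 9518 were lower in tudor males (6.56%) and 110 higher (1.16%), and 396 of the 624 lower genes carried only a CG or CR number or a similar placeholder in place of a symbol. Calls lower in tudor males made up 83.5% of all calls, but 58.4% once all arrays were scaled to the same spread and 64.9% in a fit of the arrays with tudor RNA alone. Without array 22, 376 elements were lower and 98 higher, and without array 23, 359 were lower and 25 higher.

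Among genes with a symbol, those with the lowest relative level in tudor males belonged to late spermatogenesis. The spermatid gene w-cup had a ratio of 2.45 on array 22 and 2.47 on array 23, a fitted value of 2.46 ± 0.32 that corresponds to 5.49-fold lower in tudor males (adjusted p = 1.26e-05). Mst87F, which encodes a structural protein of the sperm tail, had 2.30 on array 22 and 2.37 on array 23 and a fitted 2.34 ± 0.24 (adjusted p = 1.14e-07). The arrays differed by less than 1 SE for both genes. The gene don juan (dj), whose product is found in the sperm tail, had 2.11 on array 22 and 2.52 on array 23 and its relative djl had 1.87 on array 22 and 2.01 on array 23. The testis-specific tubulin betaTub85D, from which the axoneme is built, had 1.94 on array 22 and 2.09 on array 23 and a fitted 2.01 ± 0.20, or 4.03-fold lower (adjusted p = 7.97e-08). All of these values were far from 0 on both arrays, as the plot of the 30 genes shows.

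Among the other genes with the largest fall, S-Lap7 and S-Lap8, leucyl aminopeptidases that are abundant sperm proteins, stood at 2.28 ± 0.27 and 2.13 ± 0.29. A roadblock-like dynein light chain, robl62A, stood at 2.24 ± 0.24. Mst33A and Mst98Cb, male-specific transcripts, stood at 2.10 ± 0.24 and 2.09 ± 0.25, and the ocnus gene ocn of the testis at 1.92 ± 0.34. Gpdh3, a paralog of glycerol-3-phosphate dehydrogenase, read 1.99 on array 22 and 2.00 on array 23. Rab3-GAP, which encodes a GTPase-activating protein (GAP) for a Rab, read 1.78 on array 22 and 2.11 on array 23, and its other element gave 1.77 ± 0.17. The adjusted p of these 8 genes lay between 2.25e-09 and 0.00139. The call was lost without array 22 for dj (adjusted p = 0.0541) and ocn (0.0702). It was also lost without array 23 for dj (0.0681) and ocn (0.0571).

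**Figure D1:**
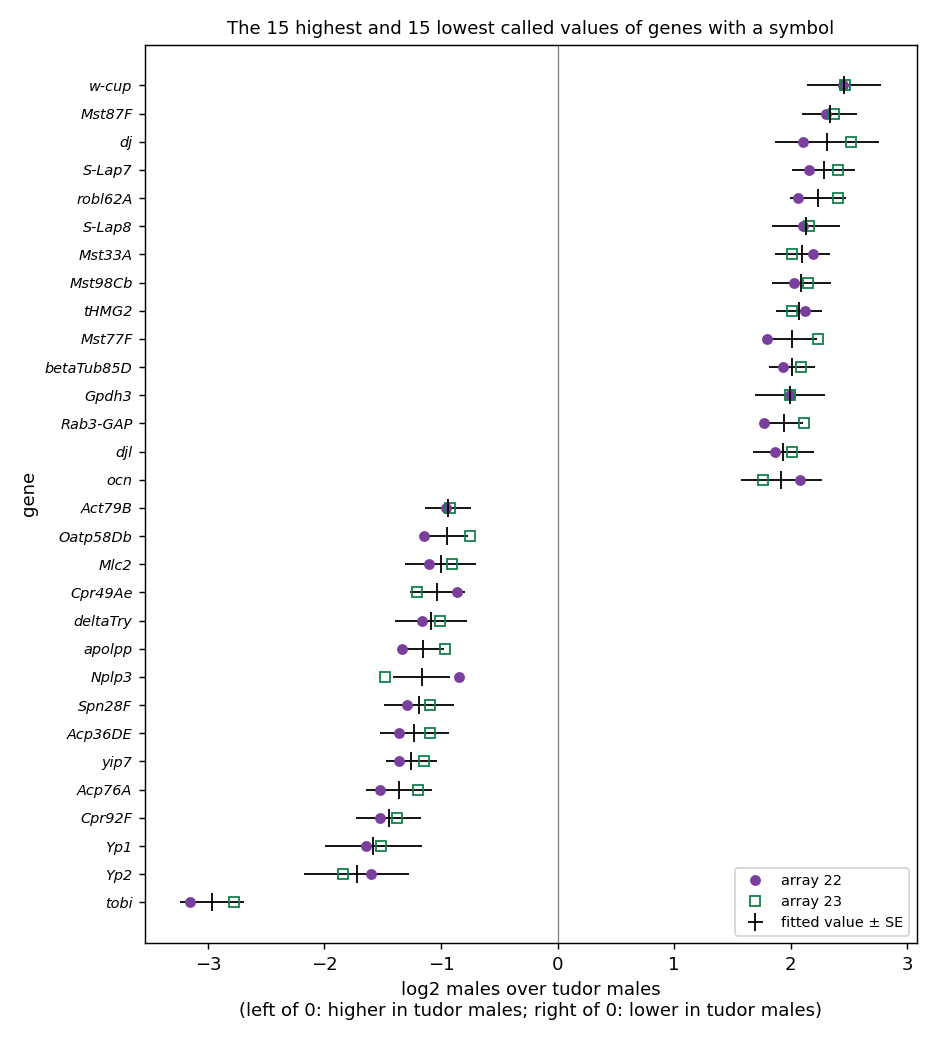
Log2 ratio of males over tudor males on array 22 (filled circles) and array 23 (open squares) for the 15 highest and 15 lowest called genes with a symbol, with the fitted value ± SE. The lowest is tobi at -2.97, higher in tudor males, the highest w-cup at 2.46, lower in tudor males, and both arrays lie on the same side of 0 for all of them.

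Listed genes that act early in the germline moved little. They were also less testis-biased than later groups. In testis over male carcass 7 of 19 were called higher in testis, beside 2699 of 9336 among all genes. The median of these 19 was 0.40, against 2.07 for sperm tail genes. An effect of stage apart from this bias was not tested. Of 17 genes of germline identity and the piRNA pathway, which silences transposons, 1 was lower in tudor males and 0 higher, against 6.56% and 1.16% of all genes, and the median was -0.01, against -0.01 over all genes. That gene was nanos, a translational repressor of germline stem cells, with 0.61 on array 22 and 0.53 on array 23 and a fitted 0.57 ± 0.13 (adjusted p = 0.00429). Its partner pum stood at -0.15 ± 0.18 and bgcn, which acts with bam, at 0.45 ± 0.19. The gene vas, a helicase of the germ plasm, was measured on neither array and was not analysed here. In females, 11 of 19 tested genes of the same list were lower in tudor females, where 1196 of all 7414 genes were called so. The adjusted p rose above 0.05 without array 22 for nanos (adjusted p = 0.162). It did so without array 23 for nanos (0.0762). The same held in a fit of the 2 arrays alone for nanos (0.0589).

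Spermatocytes switch on their programme through the tMAC complex and testis-specific TAFs. The 6 tested genes of a list of spermatocyte transcription include no testis TAF, and kmg and dany among them belong to neither group. All 6 lay above 0, with a median of 0.12. None was called by limma, and an unadjusted p below 0.05 was reached by 1 on the lower and 0 on the higher side. The highest, mip40, had 0.30 on array 22 and 0.18 on array 23, and the others, kmg, achi, topi, comr and dany, stood between 0.08 and 0.14. For topi, comr and dany the arrays had opposite signs. Of 13 genes of male meiosis, 3 were lower in tudor males (23.1%, against 6.56% of all genes) and 0 higher, with a median of 0.15. Without array 22, 1 of the list was called, and without array 23 none was. The cap-binding protein eIF4E3, needed for male meiotic division, had 0.81 on array 22 and 1.35 on array 23 and a fitted 1.08 ± 0.18 (adjusted p = 0.000437). The gene fest, which controls translation of Cyclin B in spermatocytes, stood at 0.93 ± 0.24 (adjusted p = 0.0108). The third was mei-S332, a protector of centromere cohesion, at 0.54 ± 0.13 (adjusted p = 0.00494), named after its value was seen. Other translation factors of the same list missed the threshold, eIF4G2 at 0.79 ± 0.27 and boule (bol) at 0.57 ± 0.30, although the other bol element gave -0.04 ± 0.10. Without array 22, the adjusted p was above 0.05 for fest (adjusted p = 0.16) and mei-S332 (0.152). Without array 23, it was above 0.05 for eIF4E3 (0.164), fest (0.217) and mei-S332 (0.102). In a fit of the 2 arrays alone, it was so for mei-S332 (0.0686).

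The groups that act after meiosis held the largest values. Their medians in testis over male carcass were also high, 1.74 for cup and comet genes and 2.07 for sperm tail genes. Of 14 tested genes of the sperm tail and axoneme, 8 were lower in tudor males (57.1%) and 0 higher. Over all genes 6.56% were lower and 1.16% higher, and the median of the sperm tail list was 1.24. Of 8 cup and comet genes, which are transcribed in elongating spermatids, 5 were lower and 0 higher, with a median of 1.09. Besides w-cup these were soti, an inhibitor of a ubiquitin ligase, at 1.50 ± 0.20, c-cup at 1.28 ± 0.16, sowi at 1.17 ± 0.35 and schuy at 1.00 ± 0.27. All 4 leucyl aminopeptidase genes were lower, with S-Lap2 at 1.90 ± 0.22 and S-Lap5 at 1.21 ± 0.22 beside the pair named above. The call was lost without array 22 for sowi (adjusted p = 0.289), S-Lap5 (0.0576) and schuy (0.231). It was also lost without array 23 for sowi (0.411) and schuy (0.193). Further losses came without a dye coefficient for sowi (0.0919). Further losses came with arrays taken as independent for sowi (0.0549).

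Sperm chromatin gave 3 of 3 genes lower in tudor males, against 6.56% of all genes. Mst77F, a linker-histone-like protein of the compacted sperm nucleus, had 1.80 on array 22 and 2.24 on array 23 and a fitted 2.02 ± 0.21 (adjusted p = 8.91e-08). The protamine gene ProtB had 1.62 on array 22 and 1.72 on array 23 and a fitted 1.67 ± 0.16 (adjusted p = 1.14e-07). The HMG-box gene tHMG2, transiently used in spermatid nuclei, had 2.13 on array 22 and 2.02 on array 23 and a fitted 2.07 ± 0.20 (adjusted p = 5.99e-08). For these genes the calls held without either array. ProtB has a near-identical paralog that a spotted probe could also bind.

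Of 15 genes of sperm individualisation and function, 6 were lower in tudor males (40%) and 0 higher, against 6.56% and 1.16% of all genes. The importin alpha gene Pen had 1.90 on array 22 and 1.85 on array 23, the chaperonin Hsp60B 1.80 on array 22 and 1.69 on array 23 and janB, the neighbour of ocn, 1.54 on array 22 and 1.53 on array 23. Their fitted values were 1.87 ± 0.30, 1.74 ± 0.31 and 1.53 ± 0.19. The remaining called genes, named after their values were seen, were ntc, an F-box protein that permits caspase activation in spermatids, at 1.48 ± 0.18, and Duba, a deubiquitinase of the same process, at 0.65 ± 0.18, beside ocn. The adjusted p rose above 0.05 without array 22 for Duba (adjusted p = 0.34). It did so without array 23 for Duba (0.105).

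Several housekeeping machines of the fly have an additional, testis-expressed copy of some subunits, and the copies are listed here beside the standard ones. Of 9 testis paralogs of proteasome subunits 3 were lower in tudor males (33.3%, against 6.56% of all genes). Their median was 0.53 and every value lay above 0. Prosbeta4R2 stood at 1.24 ± 0.19, Rpn12R at 0.84 ± 0.14 and Prosbeta5R1 at 0.77 ± 0.20. Of 22 standard proteasome subunits none was called by limma (an unadjusted p below 0.05 was reached by 3 on the lower and 0 on the higher side), with a median of 0.11 and a highest value of 0.42, that of Prosalpha7. Of 17 testis paralogs of metabolic enzymes 9 were lower (52.9%, against 6.56% of all genes), with a median of 0.55, but 6 without array 22 and 5 without array 23. Beside Gpdh3 these included the cytochrome c oxidase paralogs COX4L at 1.75 ± 0.19 and COX7AL at 1.52 ± 0.16 and the phosphoglycerate mutase paralog Pglym87 at 1.38 ± 0.18. The other element of Pglym87 gave 0.85 ± 0.20. The remaining called members, named after their values were seen, were COX6AL2 at 1.11 ± 0.27, mAcon2 at 1.09 ± 0.33, Scsalpha2 at 1.07 ± 0.19, ATPsynGL at 0.55 ± 0.12 and ATPsynCF6L at 0.55 ± 0.16. Without array 22, the adjusted p was above 0.05 for Prosbeta5R1 (adjusted p = 0.0718), ATPsynCF6L (0.287), COX6AL2 (0.16) and mAcon2 (0.301). Without array 23, it was above 0.05 for Prosbeta5R1 (0.616), Scsalpha2 (0.0908), ATPsynCF6L (0.205), ATPsynGL (0.962), COX6AL2 (0.263) and mAcon2 (0.36). Without a dye coefficient, it was so for mAcon2 (0.0749). In a fit of the 2 arrays alone, it was so for ATPsynCF6L (0.074) and ATPsynGL (0.192). With arrays 7b and 8b as deposited, it was so for mAcon2 (0.12).

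Of 48 standard genes of mitochondrial energy production none was called by limma. In the same test an unadjusted p below 0.05 was reached by 2 on the lower and 1 on the higher side. Of 38 ribosomal protein genes 1 was lower in tudor males (2.63%, against 6.56% of all genes). It was RpL10Aa, a testis paralog, with 1.55 on array 22 and 1.81 on array 23 (adjusted p = 4.97e-06). The medians of both lists had opposite signs on the arrays. The mitochondrial genes had a median of -0.23 on array 22 and 0.41 on array 23, and the ribosomal genes -0.21 and 0.44. Some members kept 1 sign without being called, among them RpL39 with 0.15 on array 22 and 1.01 on array 23 and the proton channel subunit ATPsynC with -0.98 on array 22 and -0.37 on array 23.

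**Figure D2:**
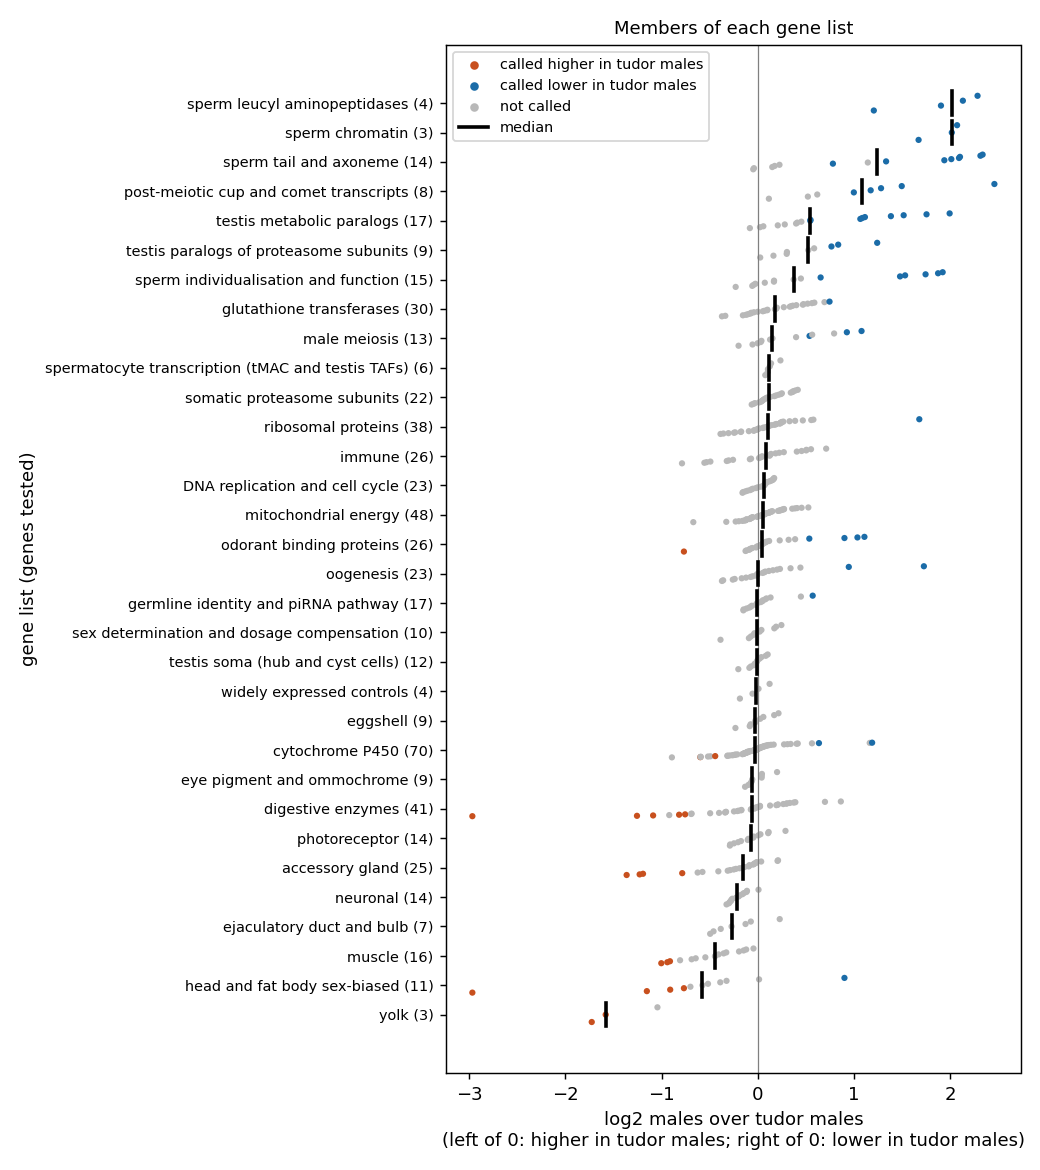
Log2 ratio of males over tudor males for every tested member of each gene list with more than 2 tested members, with the number tested in brackets, members called higher in tudor males in orange, called lower in blue, not called in grey, and the median as a black bar. The medians run between -1.58 for the yolk genes and 2.02 for the sperm leucyl aminopeptidases, and the lists near 0 include the standard proteasome, ribosome and mitochondrial genes.

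A pair of other arrays compared dissected testis with the male carcass, from which the gonads had been removed, and no label ties their RNA to the whole males or tudor males used here. Of 746 elements lower in tudor males and tested there, 717 (96.1%) were called higher in testis and 23 (3.08%) higher in carcass, while 25.5% and 26.2% of all elements were called in these directions. The 717 elements were 24.1% of the 2971 testis-biased elements tested in both. Of 141 elements higher in tudor males, 102 (72.3%) were called higher in carcass, 3% of the 3397 carcass-biased elements, and 11 (7.8%) higher in testis. Across 12482 elements the values of both comparisons correlated with a Pearson r of 0.711, as a description.

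The share of genes lower in tudor males followed the size of the testis bias. Among 325 genes with a testis over carcass value above 2, 282 (86.8%) were lower in tudor males, with a median of 1.34. Between 1 and 2, 270 of 664 genes (40.7%) were lower, with a median of 0.54. Between -0.5 and 0.5 it was 9 of 5513 (0.163%), with a median of -0.02. At the carcass end, 8 of 81 genes at or below -2 (9.88%) were higher in tudor males, with a median of -0.20. For the sperm genes named here the whole-fly ratio was the smaller one. The value of betaTub85D was 2.01 in males over tudor males and 2.55 in testis over carcass, and that of Mst87F 2.34 and 2.84.

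**Figure D3:**
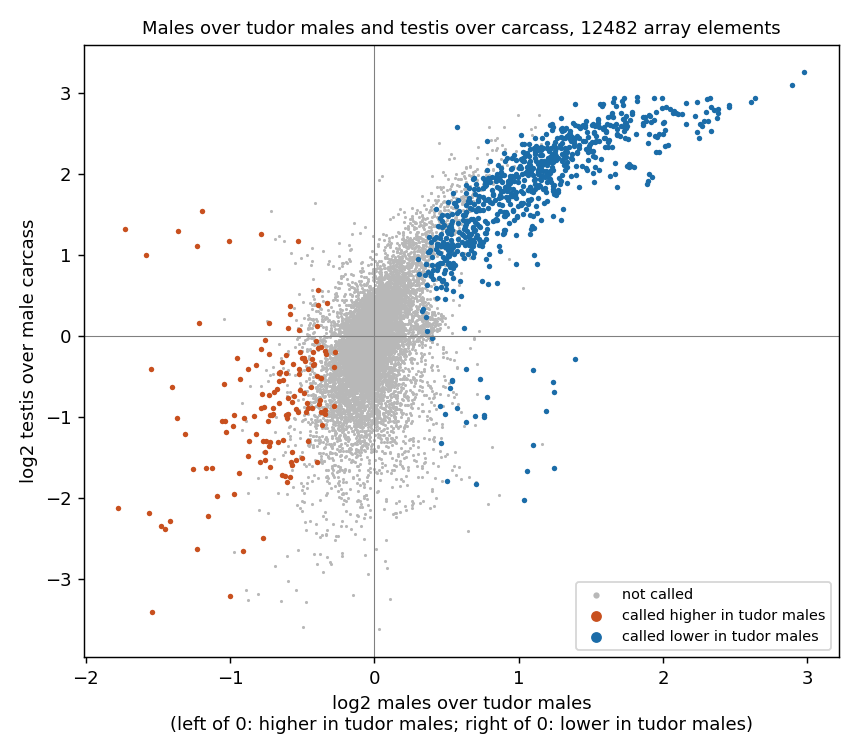
Log2 males over tudor males (horizontal) against log2 testis over male carcass (vertical), 1 point per element tested in both, coloured by the call in males over tudor males. The 717 elements lower in tudor males and higher in testis fill the upper right, and 102 of those higher in tudor males were called higher in carcass, at lower left.

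**Figure D4:**
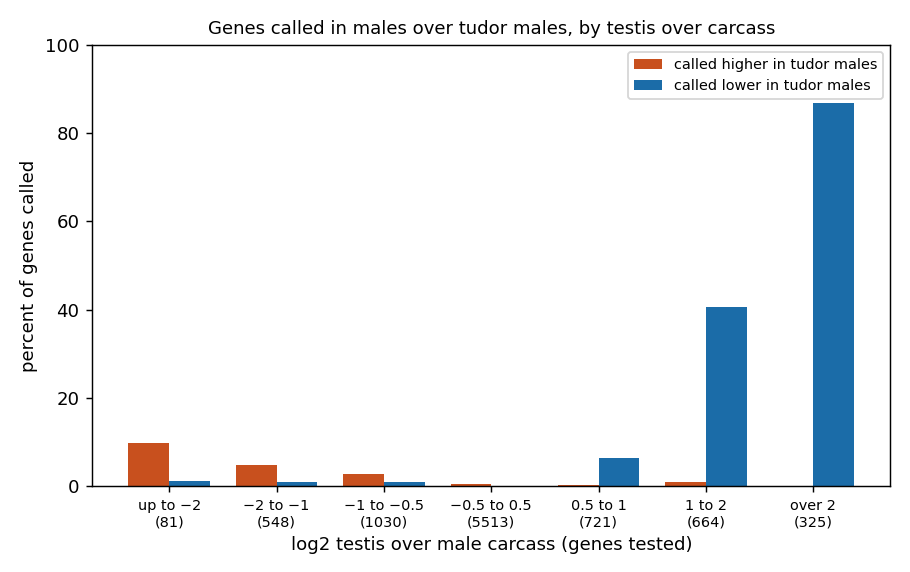
Percent of genes called higher (orange) and lower (blue) in tudor males, in bins of log2 testis over male carcass, with the number of genes per bin in brackets. The share called lower is 86.8% in the highest bin and 0.163% in the middle one, and the share called higher is 9.88% in the lowest bin.

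A higher value in the testis sample than in carcass did not by itself mark a gene that was low in tudor males. All 24 accessory gland genes tested in the gonad comparison were called higher in testis than in carcass, with a median of 1.00. Among all genes, 2699 of 9336 were called so. The accessory glands are somatic, and which cells of the testis sample carried these transcripts was not tested. Of 25 tested here, 0 were lower in tudor males and 4 higher (16%, against 1.16% of all genes), with a median of -0.16. Acp76A, a serpin of the seminal fluid, had -1.53 on array 22 and -1.20 on array 23 and a fitted -1.36 ± 0.28 (adjusted p = 0.00189). Acp36DE, a seminal protein needed for sperm storage in females, had -1.36 on array 22 and -1.10 on array 23 and a fitted -1.23 ± 0.30 (adjusted p = 0.00715). The serpins Spn28F and Spn38F stood at -1.19 ± 0.30 and -0.79 ± 0.20. All of these were higher in tudor males on both arrays. The sex peptide gene SP, which alters female behaviour after mating, stood at 0.21 ± 0.21. Of 7 genes of the ejaculatory duct and bulb none was called by limma (an unadjusted p below 0.05 was reached by 0 on the lower and 1 on the higher side), with a median of -0.27 and EbpII lowest at -0.50 ± 0.27. Of 12 genes of hub and cyst cells none was called by limma (an unadjusted p below 0.05 was reached by 0 on the lower and 0 on the higher side), with a median of -0.01. Of 11 of them tested in testis over carcass, 2 were called higher in testis, with a median of 0.08. The call was lost without array 22 for Acp76A (adjusted p = 0.105), Acp36DE (0.162), Spn28F (0.135) and Spn38F (0.226). It was also lost without array 23 for Acp76A (0.0597), Acp36DE (0.135), Spn28F (0.251) and Spn38F (0.14).

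The transcript with the largest gain in tudor males was tobi, an insulin-responsive alpha-glucosidase of the gut and fat body. Its ratio was -3.15 on array 22 and -2.78 on array 23, and the fitted value of -2.97 ± 0.27 corresponds to 7.81-fold higher in tudor males (adjusted p = 3.95e-07). The yolk protein genes Yp1 and Yp2, which the fat body and ovary of females express strongly, followed. Yp1 had -1.65 on array 22 and -1.52 on array 23 and Yp2 -1.61 on array 22 and -1.85 on array 23, with fitted values of -1.58 ± 0.42 (adjusted p = 0.0157) and -1.73 ± 0.45 (adjusted p = 0.0135). Yp3 pointed the same way, at -0.76 on array 22 and -1.33 on array 23, and missed the threshold (adjusted p = 0.172), with its other element at -0.74 ± 0.38. In testis over male carcass Yp1 stood at 1.00, Yp2 at 1.33 and Yp3 at 0.21. Of these 3 yolk genes 2 were also higher in tudor females, with a median of -1.38 in females over tudor females. The other markers of female reproductive tissue lay near 0. Vm32E, of the eggshell, stood at -0.03 ± 0.31 and osk, of the oocyte, at 0.05 ± 0.30, dec was not measured on both arrays, and of 9 eggshell genes none was called by limma (an unadjusted p below 0.05 was reached by 0 on the lower and 0 on the higher side), with a median of -0.03. The adjusted p rose above 0.05 without array 22 for Yp2 (adjusted p = 0.107) and Yp1 (0.215). It did so without array 23 for Yp2 (0.426) and Yp1 (0.205). The same held with arrays 7b and 8b as deposited for Yp2 (0.218) and Yp1 (0.339).

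Among the other genes higher in tudor males were members of lists of somatic tissues. Of 16 muscle genes 3 were higher in tudor males (18.8%, against 1.16% of all genes) and 0 lower. Every value lay below 0, 13 lay below 0 on both arrays, and the median was -0.44, against -0.01 over all genes. Mlc2, a myosin light chain, had -1.10 on array 22 and -0.91 on array 23, and the actins Act79B and Act88F stood at -0.94 ± 0.19 and -0.91 ± 0.27. Of 41 digestive enzyme genes 5 were higher (12.2%) and 0 lower, with a median of -0.06. Beside tobi these were yip7, a serine protease, at -1.26 ± 0.22, the trypsin gene deltaTry at -1.09 ± 0.31 and, named after their values were seen, thetaTry at -0.82 ± 0.25 and Ser6 at -0.76 ± 0.18. The digestive list as a whole split by array, with a median of -0.42 on array 22 and 0.29 on array 23. deltaTry has near-identical trypsin neighbours, which a probe could also bind. Without array 22, the adjusted p was above 0.05 for deltaTry (adjusted p = 0.292), Mlc2 (0.264), Act88F (0.162), thetaTry (0.549) and Ser6 (0.159). Without array 23, it was above 0.05 for deltaTry (0.19), Mlc2 (0.389), Act79B (0.522), Act88F (0.547), thetaTry (0.0713) and Ser6 (0.128). Without a dye coefficient, it was so for deltaTry (0.0521), Mlc2 (0.0655), Act79B (0.106), Act88F (0.054) and thetaTry (0.0697). In a fit of the 2 arrays alone, it was so for thetaTry (0.132). With arrays 7b and 8b as deposited, it was so for yip7 (0.698), deltaTry (0.779), Mlc2 (0.827) and thetaTry (0.807). Without centring, it was so for Mlc2 (0.0552) and thetaTry (0.0529). Among the elements measured on all arrays, it was so for Mlc2 (0.073), Act88F (0.0561) and thetaTry (0.0645).

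The lipid carrier precursor apolpp, made in the fat body, had -1.34 on array 22 and -0.97 on array 23 (adjusted p = 2.31e-05). It belongs to a list of 11 tested head and fat body genes, chosen for sex bias seen in these data. Of these, 4 were higher in tudor males (36.4%) and 1 lower (9.09%), against 1.16% and 6.56% of all genes. The others higher were tobi, fit at -0.91 ± 0.28 and the odorant binding protein Obp99b at -0.77 ± 0.20, with -0.98 ± 0.22 from its other element. The cuticle protein gene Cpr92F had -1.53 on array 22 and -1.38 on array 23 and Cpr49Ae -0.86 on array 22 and -1.21 on array 23. Nplp3, which encodes a neuropeptide-like precursor, had -0.85 on array 22 and -1.49 on array 23 and the transporter gene Oatp58Db -1.15 on array 22 and -0.75 on array 23. Of 14 neuronal genes none was called by limma (an unadjusted p below 0.05 was reached by 0 on the lower and 1 on the higher side), 12 lay below 0 on both arrays, and the median was -0.21. The call was lost without array 22 for Oatp58Db (adjusted p = 0.142), Obp99b (0.141) and fit (0.384). It was also lost without array 23 for Cpr92F (0.0856), Nplp3 (0.556), Cpr49Ae (0.567), Obp99b (0.302) and fit (0.224). Further losses came without a dye coefficient for fit (0.0824). Further losses came with arrays 7b and 8b as deposited for Obp99b (0.535). Further losses came without centring for fit (0.0595).

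A few genes of odour binding and detoxification were called. Of 26 odorant binding protein genes, small secreted carriers of hydrophobic molecules, 4 were lower in tudor males (15.4%) and 1 higher (3.85%), against 6.56% and 1.16% of all genes. Obp44a had 0.85 on array 22 and 1.37 on array 23, Obp56d 0.87 on array 22 and 1.20 on array 23 and Obp99a 0.72 on array 22 and 1.09 on array 23, with adjusted p of 0.000158, 0.0187 and 0.000501, and Obp56a, named after its value was seen, stood at 0.54 ± 0.14. Obp56d was higher in carcass in the gonad comparison, at -2.03 in testis over carcass. Obp44a and Obp99a were higher in the testis sample, at 1.00 and 1.27. Of 70 cytochrome P450 genes 2 were lower and 2 higher, 2.86% each, the lower share below and the higher share above that of all genes. Cyp6a2, linked to insecticide metabolism, read 0.68 on array 22 and 1.70 on array 23, with 1.19 and 1.10 from its elements, and Cyp4p2 stood at 0.64 ± 0.10. Cyp6t3 and Cyp4d20, named after their values were seen, were higher in tudor males at -0.44 ± 0.10 and -0.60 ± 0.16. Of 30 glutathione transferase genes 1 was lower (3.33%), GstD3 at 0.75 ± 0.14, also a share below that of all genes. The adjusted p rose above 0.05 without array 22 for Obp56d (adjusted p = 0.0842), Cyp6t3 (0.354) and Cyp4d20 (0.442). It did so without array 23 for Obp99a (0.188), Obp44a (0.087), Cyp6a2 (0.851), GstD3 (0.0749), Obp56d (0.646) and Obp56a (1). The same held without a dye coefficient for Cyp6t3 (0.0595). The same held in a fit of the 2 arrays alone for Cyp6a2 (0.0963), Cyp6t3 (0.114), Cyp4d20 (0.105) and Obp56a (0.153). The same held with arrays 7b and 8b as deposited for Obp99a (0.401), Cyp6a2 (0.333) and Obp56a (0.609).

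Other somatic groups gave no call in limma's test. Of 14 photoreceptor genes the median was -0.07, and an unadjusted p below 0.05 was reached by 0 on the lower and 0 on the higher side. The 9 eye pigment genes, which include scarlet (st) at -0.10 ± 0.23 and pink (p) at -0.13 ± 0.09, had a median of -0.06, although the stocks differ in their eye colour mutations, and an unadjusted p below 0.05 was reached by 0 on the lower and 0 on the higher side. Among 26 immune genes the median was 0.08 and an unadjusted p below 0.05 was reached by 2 on the lower and 3 on the higher side. The peptidoglycan recognition gene PGRP-SC2 had -1.16 on array 22 and -0.42 on array 23, and the antimicrobial peptide gene Mtk 0.18 on array 22 and 1.25 on array 23, with values on the arrays that lay far apart for both. For 10 genes of sex determination and dosage compensation the median was -0.01, with fru at -0.39 ± 0.21, whose other 4 elements lay between -0.05 and 0.01, and tra at 0.19 ± 0.11, and an unadjusted p below 0.05 was reached by 0 on the lower and 0 on the higher side. The 4 widely expressed control genes stood between -0.19 and 0.12, with RpL32 at 0.01 ± 0.26 and Tbp at -0.06 ± 0.09, and an unadjusted p below 0.05 was reached by 0 on the lower and 0 on the higher side.

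The same loss of the germline was measured in females on arrays 24 and 25, as females over tudor females, where a positive value means lower in tudor females. There 14.9% of elements were called lower and 14.3% higher in tudor females. Of 120 elements higher in tudor males and tested in females, 94 (78.3%) were also higher in tudor females, 6.31% of the 1489 elements called so there, and 1 was lower. Of the 747 elements lower in tudor males, only 350 were tested in females. Of these, 66 (18.9%) were also lower in tudor females, 4.5% of the 1465 called so there, 10 were higher and 274 were not called. Few sperm genes were tested in females, with 3 of the sperm tail list and 0 of the leucyl aminopeptidases. tobi read -3.05 on array 24 and -3.52 on array 25 in females, and its effect in males minus that in females was 0.32 ± 0.39 (adjusted p = 0.638). apolpp stood at -1.75 in females, yip7 at -1.44, Cpr92F at -1.51 and Mlc2 at -1.98, each called higher in tudor females. The stock background is shared by the tudor flies of both sexes, and its part in these values was not tested.

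Genes lower in tudor flies of both sexes included some with known roles in both germlines. Pen had 1.90 on array 22 and 1.85 on array 23 in males and 1.39 on array 24 and 1.85 on array 25 in females. The maternal RNA localisation gene exu, which also acts in spermatogenesis, had 1.48 on array 22 and 1.97 on array 23 in males and 0.91 on array 24 and 1.69 on array 25 in females, and its other element gave 0.71 ± 0.13 in males. The translational repressor cup stood at 0.95 ± 0.18 in males and 1.17 in females, and nanos at 0.57 and 0.59. The effects in males and females were not shown to differ for Pen (difference 0.26 ± 0.42), exu (0.43 ± 0.37), cup (-0.23 ± 0.26) or nanos (-0.02 ± 0.19), with adjusted p between 0.487 and 0.956.

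The difference itself, the effect in males minus that in females, was tested for 10287 elements. It was called above 0 for 540 (5.25%) and below 0 for 508 (4.94%). Without array 23 these counts were 67 and 28, and without array 25 89 and 29. Without array 22 they were 351 and 403, and without array 24 249 and 280. Cell cycle genes lay at the female end. Of 23 genes of DNA replication and the cell cycle none was called by limma in males, with a median of 0.07. In the same test an unadjusted p below 0.05 was reached by 0 on the lower and 0 on the higher side. In females, 20 of 24 were lower in tudor females, with a median of 0.72, where 1196 of all 7414 genes were called so. The difference was called below 0 for 10 of 20. CycB, the mitotic cyclin, had 0.20 on array 22 and -0.21 on array 23 in males and 1.81 on array 24 and 1.90 on array 25 in females (difference -1.86 ± 0.32, adjusted p = 0.00043). Of 23 oogenesis genes, exu and cup were lower in tudor males (8.7%, against 6.56% of all genes). In females, 15 of 25 oogenesis genes were lower in tudor females, and the difference was called below 0 for 6 of 23. They included the maternal thioredoxin dhd, at 0.44 on array 22 and 0.45 on array 23 in males and 2.39 on array 24 and 2.61 on array 25 in females, and the helicase me31B, a part of maternal RNA granules, at 0.07 in males and 1.88 in females.

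A few genes called in both sexes had opposite signs. Obp99a was lower in tudor males, at 0.90 ± 0.17, and higher in tudor females, at -1.42 on array 24 and -1.36 on array 25, and its difference of 2.29 ± 0.24 was the largest among genes with a symbol (adjusted p = 8.6e-07). Obp44a stood at 1.11 in males and -0.85 in females (difference 1.96 ± 0.28, adjusted p = 3.02e-05). Jabba, a lipid droplet protein that anchors histones in the egg and embryo, was higher in tudor males, at -0.84 on array 22 and -1.02 on array 23, and lower in tudor females, at 0.89 on array 24 and 1.32 on array 25 (difference -2.03 ± 0.35, adjusted p = 0.00043). Send1, a protease gene of the female sperm storage organs, was not called in males, at -0.48 ± 0.33, and was higher in tudor females, at -2.29 on array 24 and -2.33 on array 25. The male genes Mst77F and Rab3-GAP stood at 0.00 and 0.11 in females, where neither was called. Without array 22, the adjusted p was above 0.05 for Jabba (adjusted p = 0.0964). Without array 23, it was above 0.05 for Obp99a (0.188), Jabba (0.45) and Obp44a (0.087). In a fit of the arrays with tudor RNA alone, it was so for Jabba (0.0842). With arrays 7b and 8b as deposited, it was so for Obp99a (0.401).

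**Figure D5:**
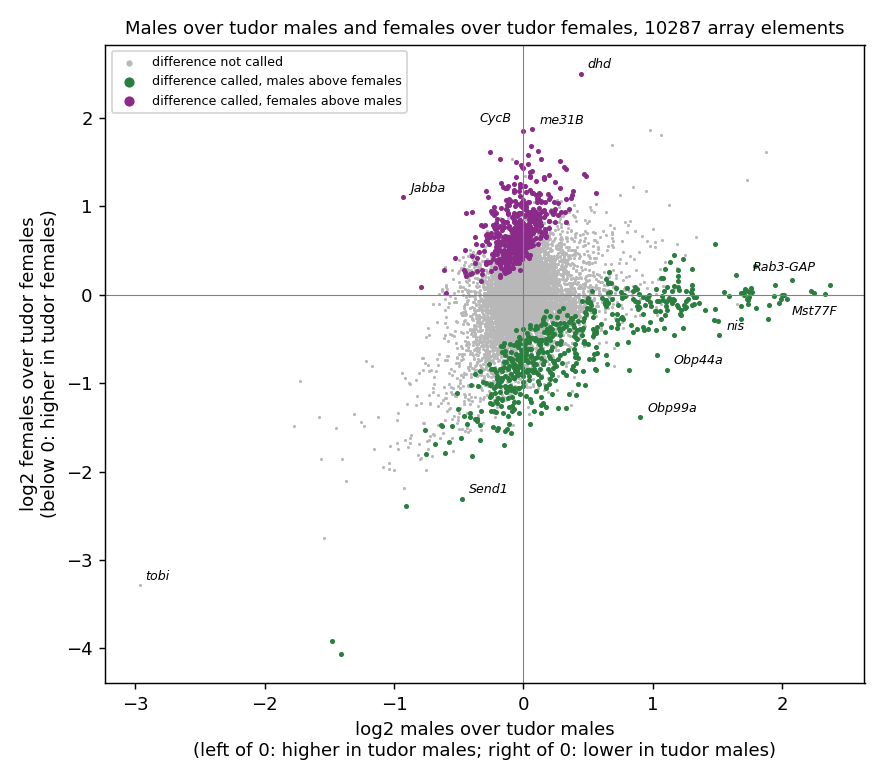
Log2 males over tudor males (horizontal) against log2 females over tudor females (vertical), 1 point per element tested in both, coloured where the difference of these effects was called. tobi lies at lower left at -2.97 and -3.29, sperm genes such as Mst77F lie along the horizontal axis, and CycB, me31B and dhd lie along or near the vertical one.

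By chromosome arm, placed with the RefSeq Release 6 gene table, 49 of 1500 X-linked genes (3.27%) were lower in tudor males, against 561 of 7645 autosomal genes (7.34%). On the large autosomal arms the share ran between 6.45% on 3L and 8.89% on 2L. Among genes called higher in testis than in carcass, 49 of 318 on the X (15.4%) and 539 of 2015 on the autosomes (26.8%) were lower in tudor males. Their median ratios were 0.19 on the X and 0.24 on the autosomes. These shares are descriptions, and no test of the difference between chromosomes was run. Y-linked fertility genes were not analysed here.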

How the data were processed

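Poly(A) mRNA of whole tudor males and yellow white males was labelled with Cy3 or Cy5, and 200 ng per channel were hybridised to 2-colour spotted arrays, per the labels' protocols. The values deposited by the authors are log ratios, taken here as log2. The base, the authors' background correction, normalization and filter on missing spots are steps not given in the sources used here. A natural log would enlarge every value by a constant factor. Channel 1 over channel 2 was taken as the direction, which is likely: with it, Yp1, Yp2 and Yp3 were higher in females on all 4 arrays against males, and betaTub85D, Mst87F and dj higher in testis on all 4 arrays against ovary.

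Duplicate spots were averaged into 15732 elements, of which 12586 had 1 gene in the platform annotation, 73 several and 3073 none, and 12106 of the first matched the RefSeq Release 6 table. Arrays were centred on their median and fitted with limma 3.58.1 in R 4.3.3: 44 arrays, 15 comparisons signed by dye orientation, a dye coefficient per element (called for 3544 of 13410 elements) and the hybridisation number as a random block (correlation -0.0533). Empirical Bayes moderation used 4.12 prior degrees of freedom, and the median residual SD was 0.199. SE and p thus rest on the spread over all comparisons. Elements measured on both arrays were tested. On arrays 7b and 8b, of another comparison, 4611 and 5015 values, those of the first subarray, were left out because they ran against the other arrays. The fit was tested on simulated data. The number of arrays limits the precision.

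The arrays, gene lists and the naming rule were chosen with earlier results of these data known. Genes named are the 15 highest and 15 lowest called genes with a symbol, up to 4 members of each list by size and all members of lists of at most 6, the genotype markers, and the 10 genes with a symbol whose effects differ most between the sexes. The element measured on most arrays stands for a gene. List entries without a measured element, or with an ambiguous synonym, were not analysed here.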

Additional observations from a re-analysis of the deposited data

Results flagged for a closer look

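The test of the difference between males over tudor males and females over tudor females marked 540 elements with a higher ratio in males and 508 with a higher ratio in females. Among genes named by the rule, the ratio was higher in males for Obp99a by 2.29, Mst77F by 2.02, nis by 1.97, Obp44a by 1.96, Rab3-GAP by 1.84, Send1 by 1.83, Obp56d by 1.72, Hsp60B by 1.71, fit by 1.48, fest by 1.14 and Cyp4p2 by 0.455 on the log2 scale. The difference was -2.06 for dhd, -2.03 for Jabba, -1.86 for CycB and -1.81 for me31B. The differences of Obp56d, Hsp60B, fit, fest and Cyp4p2 were not examined in the alternative fits. For fit, which is higher in tudor flies of both sexes, the ratio was -0.91 in males and -2.39 in females. nis read 1.42 on array 22 and 1.61 on array 23 in males and -0.23 on array 24 and -0.69 on array 25 in females. In males alone, nis was no longer called without array 22 (0.137) or array 23 (0.198). The call for dhd was lost without any 1 of the 4 arrays (adjusted p between 0.0817 and 0.224), without a dye coefficient (0.0728) and after scaling to the same spread (0.0718). It was lost without any 1 of the 4 arrays for Send1 (between 0.0507 and 0.170), and for nis without arrays 22, 23 or 25 (between 0.0641 and 0.244) and for me31B without array 23 (0.0529).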

How the results depend on the processing

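As reported, 747 elements were called lower and 148 higher in tudor males. Counts stayed within 1.5 times with arrays taken as independent (740 lower and 137 higher), without centring (784 lower and 117 higher), with both spots required on both arrays (667 lower and 147 higher) and, chosen after seeing the data, with arrays 7b and 8b as deposited (711 lower and 102 higher). They were 634 lower and 84 higher without a dye coefficient, 677 lower and 93 higher from the 2 arrays alone, 1403 lower and 759 higher from the arrays with tudor RNA, 1733 lower and 1237 higher after scaling to the same spread, 406 lower and 30 higher with at least 2-fold change, and 121 lower and 38 higher among the 4908 elements measured on all arrays, which tests fewer of them. Leaving out 1 array gave between 359 and 376 lower and between 25 and 98 higher, with 359 of the 747 and 42 of the 148 called the same way without array 22, and 343 and 23 without array 23. The difference between the sexes, 540 above 0 and 508 below 0, became 234 above 0 and 182 below 0 without a dye coefficient, 1370 above 0 and 1028 below 0 from its 4 arrays alone, 1086 above 0 and 1173 below 0 after scaling, and between 67 and 351 above 0 and between 28 and 403 below 0 with 1 array left out. The cause was not tested, except that fewer elements or arrays enter some of these fits. No named gene turned its sign in any alternative while called. Settings that ended the call of a gene named in the report, other than the 2-fold minimum, stand beside it or, for differences, under the results flagged above. Differences were followed through these settings only for the 10 genes with a symbol whose effects differ most between the sexes. The 2-fold minimum ended, by its construction, the calls of named genes with a smaller fitted value. No paired analysis was possible because the 2 arrays share no replicate number with another group, each holding both RNAs.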
